A study of Mus musculus with 8 samples.

Results

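The F-box genes are described here in the RNA of whole mouse testes after germ cell deletion of Spdya. They were taken by name: every protein-coding gene whose symbol is Fbxl, Fbxo or Fbxw followed by a number. There were 78 such genes, of 22046 protein-coding genes and 54532 genes of all kinds, and they comprised 18 Fbxl, 37 Fbxo and 23 Fbxw genes. Bulk RNA-seq had been made from 4 Spdya fl/fl males (Sync-Spdya fl/fl, the controls) and 4 Spdya fl/fl;Ddx4-CreERT2 littermate males (Sync-Spdya cKO), with 1 library for each mouse. All 8 were juvenile mice of the C57BL/6J background whose spermatogenesis had been synchronized with an inhibitor of retinoic acid synthesis followed by retinoic acid (RA). All had received tamoxifen at RA7.5 and RA8.5 by the sample labels (the study's text places both slightly earlier), and testes were taken at RA11.5, in mid-late pachynema. The Cre is driven by Ddx4, a germ cell gene, and removes exon 2 of Spdya in germ cells. In the study's synchronized testes nearly all pachytene cells, but not every one, had lost SpdyA, while the libraries held the RNA of every cell of the testis.

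An F-box protein is the part of an SCF ubiquitin ligase that recognizes the substrate. Its F-box binds Skp1, Skp1 binds the Cul1 scaffold, and Cul1 carries the RING protein Rbx1 and a ubiquitin-conjugating enzyme. The letters name what follows the F-box: leucine-rich repeats in Fbxl, WD40 repeats in Fbxw, and other or no known domains in Fbxo. In spermatocytes SCF ligases are known for roles in synapsis, in the exit from pachynema and in cyclin turnover.

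Levels are given as FPKM, which divides the fragments of a gene by its length and by a scaled library total. The libraries held 13978342 to 19583091 fragments on genes. Control replicate 1 stood apart from the other libraries. Its correlation with them was 0.969 to 0.980, and that among the other 7 was 0.981 to 0.990. Its mitochondrial fragments were 0.464% of the total, and those of the others 2.20% to 3.74%. Several results whose call, count or direction changed without it are also given without it, but not all. Spdya was at 21.3 ± 1.76 FPKM (SD, n = 4) in Sync-Spdya fl/fl and 24.1 ± 5.45 FPKM in Sync-Spdya cKO testes. Since the deletion takes out 1 exon, this level over the whole gene gave no check of the labels.

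Most F-box genes were detected in the synchronized testis. Over the 8 libraries 28 of the 78 had a mean above 10 FPKM, 31 were between 1 and 10, 11 were between 0.1 and 1, and 8 were at 0.1 or below. The most abundant Fbxw gene was Fbxw5, an F-box protein known for control of centrosome duplication, at 80.6 ± 15.9 FPKM in the controls and 73.0 ± 8.55 in Sync-Spdya cKO. It was followed by Fbxw11 (25.5 ± 1.32 and 27.5 ± 1.96 FPKM), a β-TrCP protein that recognizes phosphorylated substrates such as β-catenin, and by Fbxw9 (27.5 ± 12.7 and 23.1 ± 3.87 FPKM). Fbxo21 led the Fbxo genes at 64.1 ± 2.12 and 63.9 ± 5.75 FPKM, before Fbxo3 (42.5 ± 4.48 and 40.0 ± 7.42 FPKM) and Fbxo38 (34.1 ± 1.12 and 34.9 ± 2.48 FPKM). Fbxl19, whose protein has a CXXC domain that binds CpG-rich DNA, led the Fbxl genes at 58.4 ± 29.4 and 48.5 ± 0.0468 FPKM. The large SD of its controls came with 101 FPKM in control replicate 1, where the other 7 libraries had 34.3 to 52.7. Fbxl6 was also among the most abundant Fbxl genes (33.1 ± 11.8 and 29.9 ± 2.55 FPKM). Its control range enclosed the Sync-Spdya cKO values only through control replicate 1, at 48.9 FPKM. Fbxw9 was likewise at 45.5 FPKM in control replicate 1 and at 16.2 to 28.7 FPKM in the other 7 libraries.

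**Figure D1:**
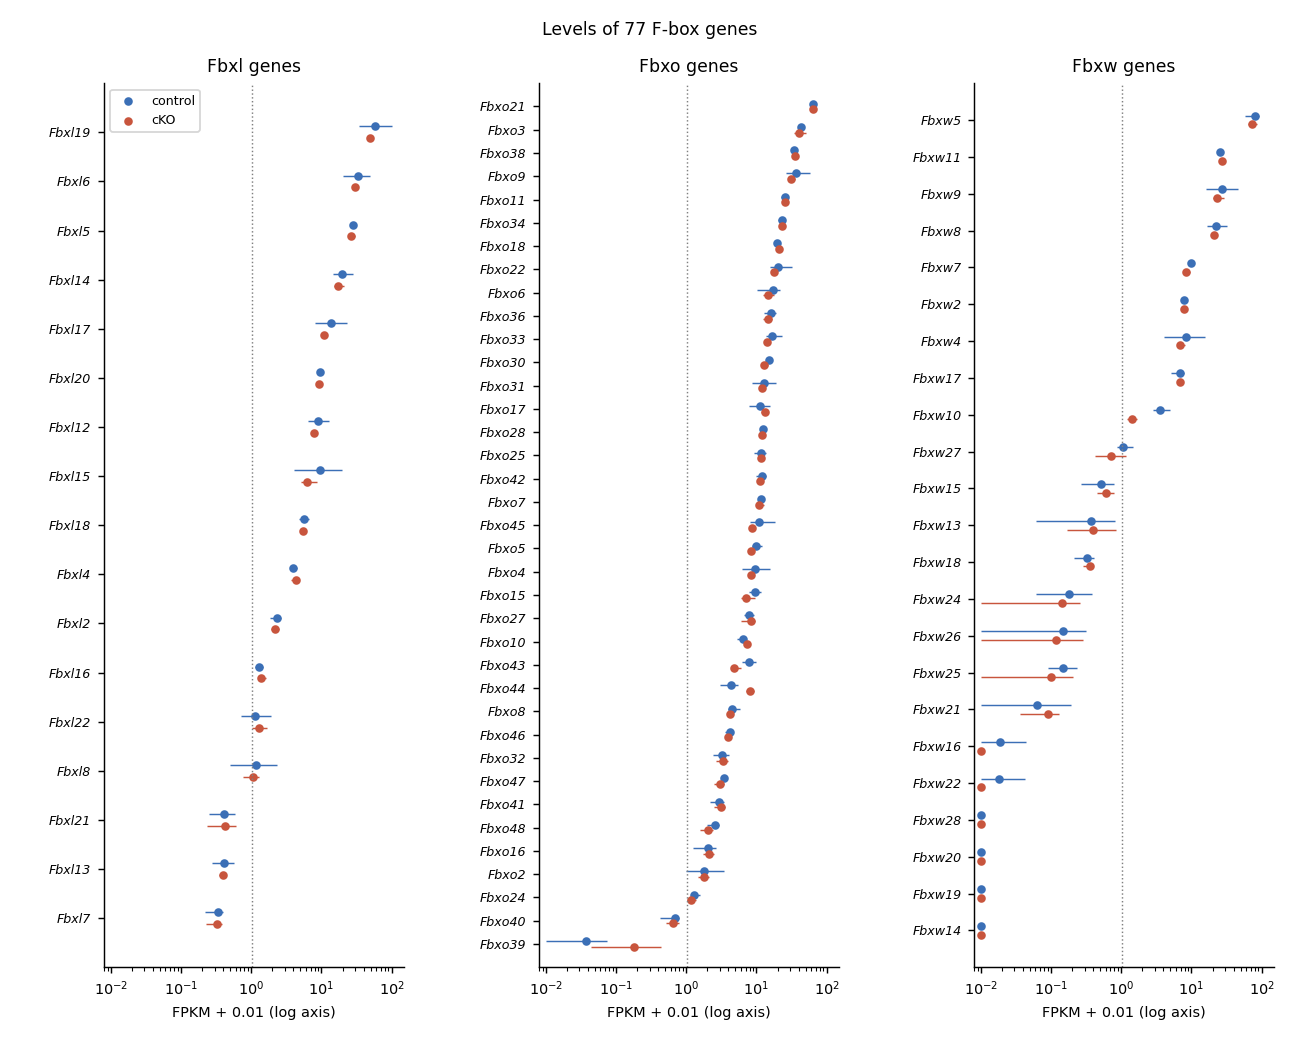
Mean FPKM of 77 F-box genes in Sync-Spdya fl/fl (blue) and Sync-Spdya cKO testes (red), by family, on a log axis after adding 0.01. Lines run from the lowest to the highest of the 4 libraries, and the dotted line marks 1 FPKM. Fbxw5 is the highest, with means of 80.6 and 73.0 FPKM, and 4 Fbxw genes were at 0 in every library.

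The comparison asked which F-box genes differed between Sync-Spdya cKO and control testes. No F-box gene passed the test. Of the 78 genes, 59 had a mean above 1 FPKM in both groups and were tested with limma on log2(FPKM + 0.1), together with all other protein-coding genes above that level, 12141 in all. A call needed a limma p below 0.05 after Benjamini-Hochberg adjustment over all of these and a log2 fold change beyond 1 in either direction. By this rule 0.0165% of all genes tested and 0 F-box genes were called, and the smallest limma adjusted p of an F-box gene was 0.127. At an unadjusted p below 0.05 there were 6 F-box genes by limma, 10.2% of those tested against 10.9% of all genes. Of these 1 was higher and 5 were lower in Sync-Spdya cKO, against 5.89% higher and 5% lower over all genes. voom, run on the fragments recovered from the FPKM values, also called 0 and gave the same counts of 1 and 5. Without control replicate 1 there were 3 higher and 3 lower, against 9.66% higher and 5.9% lower over all genes, and as TPM 2 higher and 3 lower, against 7.59% and 2.98%. The exception among the settings tried was a fit with array weights, which gave control replicate 1 the lowest weight. It called 2 F-box genes, Fbxw10 and Fbxo44, and 0.469% of all genes. At an adjusted p below 0.05 alone this fit gave 3 F-box genes, with Fbxo43, and 3.74% of all genes.

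The log2 fold changes of the 59 genes ran from -1.25 to 0.90, with a median of -0.09 against 0.01 over all genes tested. They were negative for 39 genes (66.1%, against 48.0% of all genes) and positive for 20. Without control replicate 1 this majority was gone: 26 were negative and 31 positive of 57 tested, with a median of 0.01 against 0.03 over all genes. After rescaling to TPM, which shifted the median of all genes to 0.09, 32 were negative and 35 positive of 67. The 95% intervals had a median half-width of 0.36 on the log2 scale, so for a typical F-box gene a difference smaller than this could not be told from 0. The pseudocount of 0.1 makes the fold changes of genes at low FPKM too small.

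**Figure D2:**
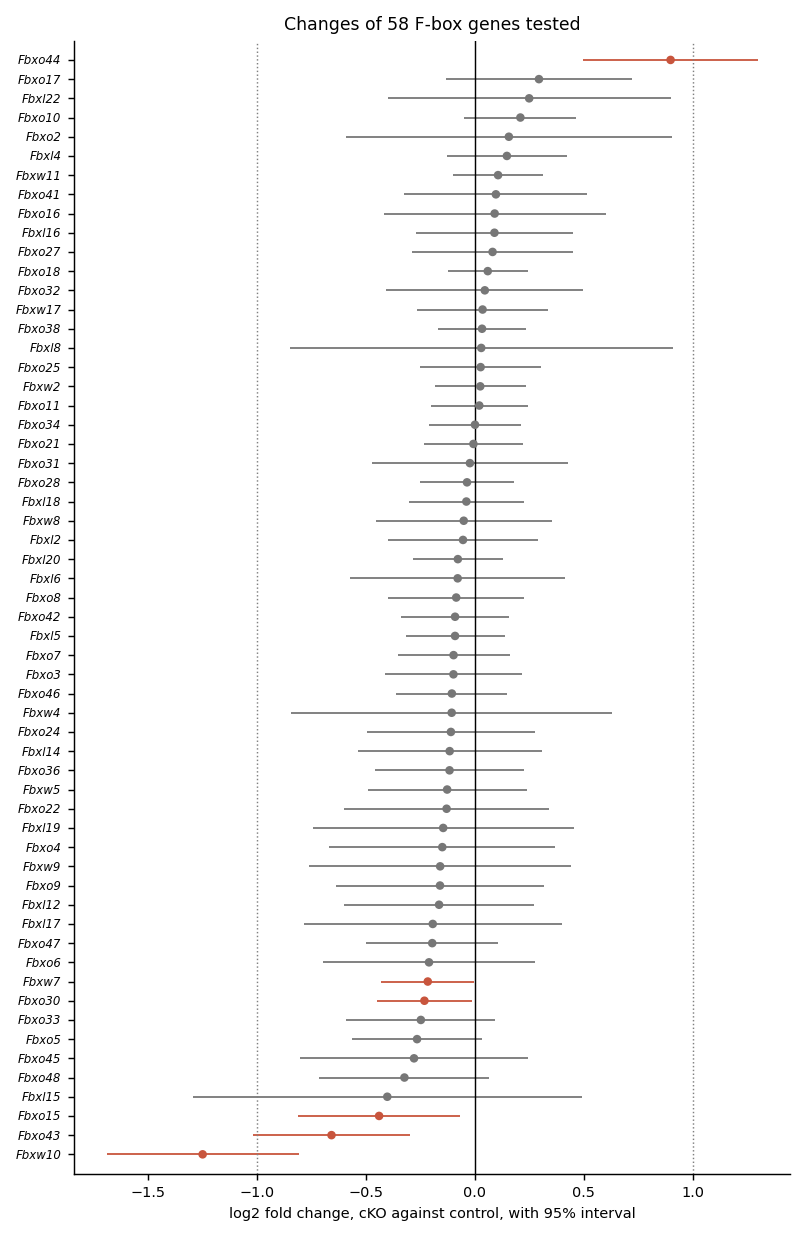
Log2 fold change of log2(FPKM + 0.1), Sync-Spdya cKO against Sync-Spdya fl/fl, with its 95% limma interval for 58 of the 59 F-box genes tested. Red marks an unadjusted p below 0.05 (6 genes), and dotted lines mark -1 and 1. Fbxw10 at -1.25 and Fbxo44 at 0.90 lie at the ends.

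The 4 Sync-Spdya cKO libraries all lay outside the control range in 4 of the 59 genes: Fbxw10 and Fbxo43 were lower, and Fbxo44 and Fbxo10 higher. Over all genes tested the groups did not overlap in 6.24%, with 2.59% lower and 3.64% higher. In Fbxw7 and Fbxl22 the groups overlapped through control replicate 1 alone. The share over all genes without that library is not given here.

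Fbxw10 (ENSMUSG00000090173, chr11:62847069-62877465 of GRCm38, plus strand, 14 merged exons) had the smallest p of the F-box genes. Its level was 2.98, 2.80, 5.02 and 3.38 FPKM in the controls and 1.41, 1.68, 1.19 and 1.33 FPKM in Sync-Spdya cKO testes. Every Sync-Spdya cKO library was thus below every control, and the highest control, replicate 3, stood above its group. The means were 3.54 ± 1.02 and 1.4 ± 0.205 FPKM (SD, n = 4), from 81 to 316 fragments in a library. The log2 fold change was -1.25 (standard error, SE, 0.20, limma adjusted p = 0.127), and the interval of the difference ran from -1.69 to -0.81. The exact permutation test, two-sided, gave p = 0.0286, the smallest that 4 libraries against 4 allow and not adjusted over genes. Without control replicate 1 the log2 fold change was -1.32 (limma adjusted p = 0.055). The study lists Fbxw10 among its differentially expressed genes, but that list was chosen on the same libraries and is not independent evidence of the direction. The study used DESeq2 with the same thresholds, a different method from limma on FPKM, so the calls of the 2 methods need not match.

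The protein-coding genes on either side of Fbxw10 had smaller log2 fold changes. Zfp286, 57607 bases before it, had a log2 fold change of -0.13 (limma adjusted p = 0.806), and Tvp23b, 1990 bases after it, one of -0.23 (limma adjusted p = 0.806). Tvp23b was at 43.6 FPKM in control replicate 1 and at 16.0 to 23.4 in the other 7. Trim16, on the same strand, shares 237 of its exonic bases with Fbxw10, which are 5.89% of those of Fbxw10. Reads there cannot be assigned to either gene with certainty, but Trim16 was at only 0.0401 to 0.151 FPKM.

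The DNA before Fbxw10 is shown because it is the F-box gene with the largest log2 fold change. It covers the 196 bases that end at the last base before the annotated gene (chr11:62846873-62847068, plus strand, from the RefSeq promoter table on GRCm38.p6), and capitals mark a match to a MYB site. The whole window lies inside the annotated span of Trim16 (chr11:62820231-62850808, same strand), so it is not DNA between genes.

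Fbxw10 upstream: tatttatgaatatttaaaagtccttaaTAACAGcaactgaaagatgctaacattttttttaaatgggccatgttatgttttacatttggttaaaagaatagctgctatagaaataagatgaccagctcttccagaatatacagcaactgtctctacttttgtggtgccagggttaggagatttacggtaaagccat

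The capitals are at 62846900 to 62846905 and match TAACNG, the core bound by MYB proteins such as Mybl1, the A-MYB factor of pachytene spermatocytes. Both strands were searched. Of 32513 promoter windows of the same length 16.1% hold TAACNG, and the match is given as a description, not as a binding site. The other motifs searched were the cAMP response element TGACGTCA (0.787% of windows), the E-box CACGTG (4.2%) and the NRF1 site (2.13%), and the window before Fbxw10 holds none of these letters. Mybl1 itself was at 17.0 FPKM in control and 14 FPKM in Sync-Spdya cKO testes, with a log2 fold change of -0.29 (limma adjusted p = 0.514).

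Fbxo43 (ENSMUSG00000048230, chr15:36150060-36164884, minus strand) encodes Emi2, which inhibits the anaphase-promoting complex and is needed for meiotic divisions. Its level was 9.70, 6.89, 8.21 and 6.23 FPKM in the controls and 6.05, 4.50, 4.48 and 4.39 FPKM in Sync-Spdya cKO testes. The groups did not overlap, but replicate 1 of Sync-Spdya cKO came close to the lowest control. Its log2 fold change was -0.66 (SE 0.16, limma adjusted p = 0.178), with means of 7.76 ± 1.54 and 4.86 ± 0.795 FPKM from 290 to 518 fragments in a library. The exact permutation test gave p = 0.0286, again the smallest possible. Leaving out control replicate 1, its highest library, gave -0.54 (limma adjusted p = 0.123). The genes on either side, Rgs22 and Polr2k, had log2 fold changes of -0.18 and 0.00.

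Fbxo47, a meiotic F-box gene needed for stable synapsis in male mice, was lower on average without a separation of the groups. It was at 3.22, 3.53, 3.20 and 3.74 FPKM in the controls and at 3.28, 2.45, 3.42 and 2.83 FPKM in Sync-Spdya cKO testes. Replicates 1 and 3 of Sync-Spdya cKO lay within the control range and the other two below it. The log2 fold change was -0.20 (SE 0.14, limma adjusted p = 0.657), with an interval from -0.50 to 0.11.

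Fbxo15, known as a gene of pluripotent cells, was at 11.6, 9.29, 9.01 and 7.88 FPKM in the controls and at 9.38, 6.04, 6.46 and 6.08 FPKM in Sync-Spdya cKO testes. Only replicate 1 of Sync-Spdya cKO fell within the control range. Its log2 fold change was -0.44 (SE 0.17, limma adjusted p = 0.396). Control replicate 1 was its highest library, and without it the value was -0.34 (limma adjusted p = 0.337) and no longer at an unadjusted p below 0.05.

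Over the 6 genes listed as meiotic or germ line F-box genes, 5 were tested, all 5 had a negative log2 fold change with a median of -0.44, and 3 (Fbxw10, Fbxo43 and Fbxo15) had an unadjusted p below 0.05, where the median over all genes was 0.01 and the share 10.9%. The list was drawn up with earlier results of these data known and is only described. No gene of the list passed at the adjusted threshold. Without control replicate 1 the 5 stayed negative with a median of -0.34, and 2 had an unadjusted p below 0.05 (15.6% of all genes), while as TPM 5 were negative and 1 positive of 6. Fbxo24, whose protein is known from the sperm flagellum, was at 1.28 ± 0.206 and 1.18 ± 0.141 FPKM. Fbxl13, a subunit of the axonemal dynein regulatory complex, was too low to be tested at 0.397 ± 0.145 and 0.380 ± 0.0370 FPKM.

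**Figure D3:**
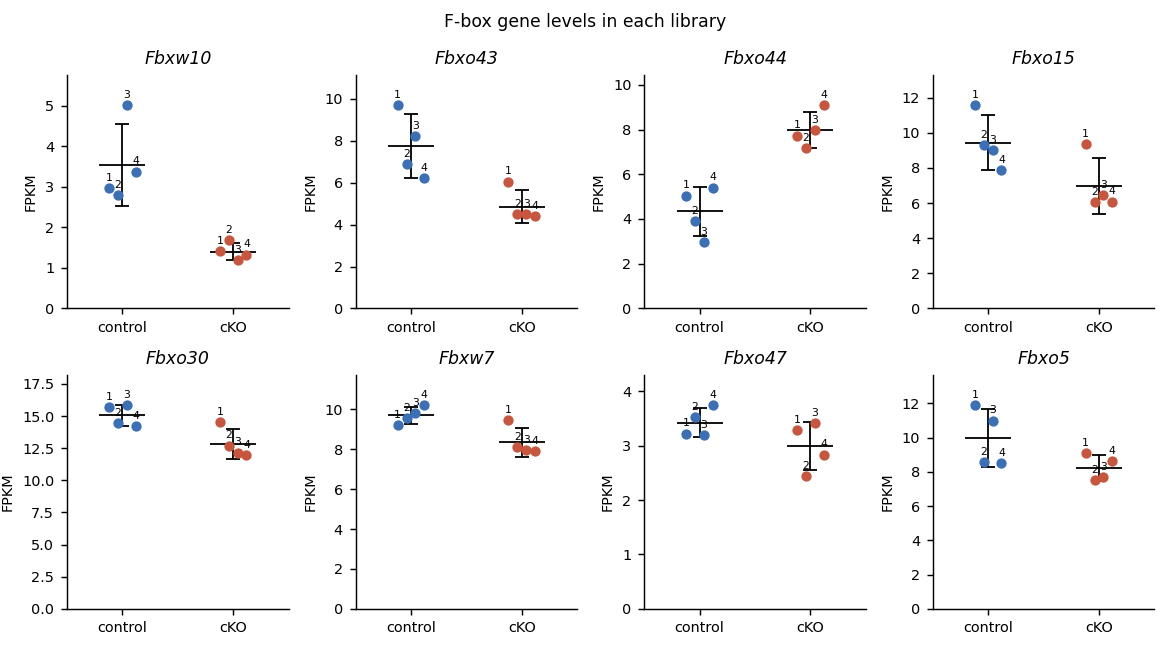
FPKM of 8 F-box genes in each library, numbered by replicate, of Sync-Spdya fl/fl (blue) and Sync-Spdya cKO (red), with the mean and SD of 4 libraries in black. The groups are separate in Fbxw10, Fbxo43 and Fbxo44 and overlap in the other 5 genes.

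The list of cell cycle F-box genes held 7 genes, Fbxo43 among them. All 7 had a negative log2 fold change, with a median of -0.15, and 2 had an unadjusted p below 0.05, where over all genes 48.0% were negative and 10.9% had such a p. Without control replicate 1 the direction was mixed, with 4 negative, 3 positive and a median of -0.06, and as TPM 5 were negative and 2 positive. Fbxw7, which targets cyclin E, Myc and Notch for degradation, was at 9.23, 9.56, 9.82 and 10.2 FPKM in the controls and at 9.45, 8.11, 7.96 and 7.92 FPKM in Sync-Spdya cKO testes. Replicates 2, 3 and 4 of Sync-Spdya cKO lay below every control, and replicate 1 of Sync-Spdya cKO was above control replicate 1 alone. The log2 fold change was -0.22 (SE 0.10, limma adjusted p = 0.456). Fbxo5, or Emi1, the mitotic counterpart of Emi2, had 9.99 ± 1.71 and 8.23 ± 0.757 FPKM, a log2 fold change of -0.26 (limma adjusted p = 0.532). The cyclin D regulators Fbxo4 and Fbxo31 had log2 fold changes of -0.15 and -0.02, and both were highest in control replicate 1.

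Fbxo44 (ENSMUSG00000029001, chr4:148152800-148160482, minus strand) was the F-box gene with the largest positive log2 fold change. It was at 5.05, 3.90, 2.98 and 5.41 FPKM in the controls and at 7.73, 7.19, 7.96 and 9.09 FPKM in Sync-Spdya cKO testes. All 4 Sync-Spdya cKO libraries were above all 4 controls. The means were 4.34 ± 1.11 and 7.99 ± 0.804 FPKM, from 141 to 467 fragments in a library, and the log2 fold change was 0.90 (SE 0.18, limma adjusted p = 0.145). The exact permutation test gave p = 0.0286, the smallest possible. Leaving out control replicate 1 gave a log2 fold change of 0.98 (limma adjusted p = 0.0625).

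Fbxo44 stands in a row of 3 related genes on chromosome 4. Fbxo6 lies 660 bases from it on the same strand and Fbxo2 lies 139 bases from it on the opposite strand. Both were described after their values were seen. Fbxo6 had 17.3 ± 4.87 FPKM in the controls and 14.5 ± 2.42 FPKM in Sync-Spdya cKO testes, a log2 fold change of -0.21 (limma adjusted p = 0.787). Fbxo2 had 1.78 ± 1.14 and 1.78 ± 0.264 FPKM, and control replicate 1 alone reached 3.44. Of the 3 genes Fbxo44 was the one in which the groups did not overlap.

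These 3 genes belong with Fbxo17 and Fbxo27 to the F-box proteins with a sugar-binding type of domain, of which Fbxo2 and Fbxo6 are known to bind N-linked glycans of misfolded glycoproteins. All 5 were tested, 4 had a positive and 1 a negative log2 fold change, the median was 0.16, and 1 had an unadjusted p below 0.05. Over all genes tested 48.0% were negative, the median was 0.01, and 10.9% had such a p. The list was drawn up with earlier results of these data known and is only described. Fbxo17, at 11.2 ± 3.36 and 13.4 ± 1.49 FPKM, had a log2 fold change of 0.29 (limma adjusted p = 0.632), and Fbxo27, its neighbour on chromosome 7, one of 0.08. The median of the 5 was 0.47 without control replicate 1, with 3 at an unadjusted p below 0.05, beside 0.03 and 15.6% over all genes.

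Fbxo10, which promotes degradation of BCL2, was the second gene with higher values in all Sync-Spdya cKO libraries, although its unadjusted limma p was above 0.05. It was at 5.21, 6.84, 6.70 and 6.91 FPKM in the controls and at 6.98, 7.82, 7.22 and 7.53 FPKM in Sync-Spdya cKO testes. The nearest values of the groups, 6.91 and 6.98 FPKM, were almost equal, and the low control was replicate 1. The log2 fold change was 0.21 (SE 0.12, limma adjusted p = 0.566) and 0.11 without that library. Fbxo10 was named after its values were seen.

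Fbxo30, which has been studied as a driver of muscle atrophy, was at 15.7, 14.5, 15.8 and 14.2 FPKM in the controls and at 14.5, 12.7, 12.2 and 11.9 FPKM in Sync-Spdya cKO testes. Replicate 1 of Sync-Spdya cKO was again the library within the control range. The log2 fold change was -0.23 (SE 0.10, limma adjusted p = 0.444), and -0.21 without control replicate 1 (limma adjusted p = 0.331), no longer at an unadjusted p below 0.05. The other atrophy gene, Fbxo32 (atrogin-1), had 3.27 ± 0.852 and 3.33 ± 0.6 FPKM, a log2 fold change of 0.05. Fbxo40, which is known to target the insulin receptor substrate Irs1 in muscle, was not tested, at 0.674 ± 0.177 and 0.630 ± 0.122 FPKM.

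Fbxw11 had a log2 fold change of 0.11 (limma adjusted p = 0.741), with an interval from -0.10 to 0.32. Fbxl21 was not tested, with 0.396 ± 0.138 and 0.410 ± 0.154 FPKM.

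A run of 14 Fbxw genes on chromosome 9 (chr9:109139447-109790670) was low in these testes, with means over the 8 libraries of at most 0.883 FPKM. It holds 14 protein-coding genes, all of them F-box genes, and several are known from oocytes. None was tested. The highest value in any library was 1.45 FPKM, in Fbxw27, the highest fragment number of a gene was 49, and Fbxw14, Fbxw19, Fbxw20 and Fbxw28 were at 0 in all 8 libraries. A count of 0 allows up to 3 fragments in a library, by counting error alone. These genes are known as a family of closely related copies, among which fragments may have been divided or dropped, so each level is uncertain. Their sequence identity was not measured here. Fbxw17, which lies on chromosome 13, was the one gene of the oocyte list with a mean above 1 FPKM in both groups, at 6.82 ± 1.20 and 6.91 ± 0.223 FPKM.

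The 19 genes not tested comprised these 14, with Fbxl7, Fbxl13, Fbxl21, Fbxo39 and Fbxo40. Their values ranged from 0 to 1.45 FPKM over all libraries, and in 0 of the 19 did the groups separate. Of the 19, 4 were at 0 in every library, where no separation is possible. The share of separated genes at such low levels was not measured, so the count is only described. The smallest exact permutation p among them was 0.0857, without adjustment. Just above the limit of 1 FPKM, and so tested, were Fbxl8, with means of 1.17 and 1.05 FPKM, and Fbxl22, with 1.11 and 1.27 FPKM. Just below it was Fbxw27, with 1.06 and 0.702 FPKM.

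No partner gene of the F-box proteins passed the test. The lists held 43 symbols for the SCF core, its ubiquitin-conjugating and ligating enzymes, neddylation, the COP9 signalosome and F-box proteins without an Fbx name. Of these, 41 were found, and Skp1 (listed beside Skp1a for the same gene) and Fbh1 had no match by symbol. A symbol without a match need not mean a missing gene. Tested were 38 genes. Their log2 fold changes ran from -0.31 to 0.27 with a median of -0.03, 16 positive and 22 negative. With limma 0 passed at an adjusted p below 0.05, and at an unadjusted p below 0.05 there were 0 higher and 1 lower, 2.63% of the 38 beside 10.9% of all genes. The adaptor Skp1a was at 156 ± 42.3 and 147 ± 15.9 FPKM, Cul1 at 51.5 ± 5.35 and 51.1 ± 4.80 FPKM, and Rbx1 at 24.9 ± 5.73 and 25.3 ± 3.41 FPKM. Their log2 fold changes of -0.06, -0.01 and 0.04 changed sign under other settings and were smaller than the spread between libraries. The 1 lower gene was Cops3, a subunit of the COP9 signalosome that removes Nedd8 from cullins, with 31.5 ± 2.38 and 26.8 ± 2.14 FPKM, a log2 fold change of -0.23 (limma adjusted p = 0.446). In Dcun1d1, a Nedd8 ligase named after its values were seen, the groups did not overlap, with 3.47 to 3.92 FPKM in the controls and 3.19 to 3.40 FPKM in Sync-Spdya cKO testes (log2 fold change -0.16, limma adjusted p = 0.635). It was the only 1 of the 38 without overlap, beside 6.24% of all genes tested.

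Control replicate 1 had high values in many F-box genes. It was the highest of the 8 libraries in 31 of the 59 genes tested, 52.5% against 34.2% of all genes tested. The FPKM of the 78 genes summed to 1150 in it and to 771 to 908 in the other 7. In 12 tested genes it was at least 1.5 times the next highest library. Fbxl15, which targets Smurf1, was at 19.8 FPKM there and at 4.03 to 8.69 FPKM elsewhere, and Fbxw4 at 15.9 FPKM against 4.04 to 7.99. Fbxo45 was at 18.5 FPKM in it and at 7.88 to 9.45 FPKM elsewhere. The exons of Fbxl15 share 25.6% of their bases with Cuedc2 on the opposite strand and those of Fbxl12 share 37.1% with Ubl5, and the use of strand in counting is not given in the sources used here.

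**Figure D4:**
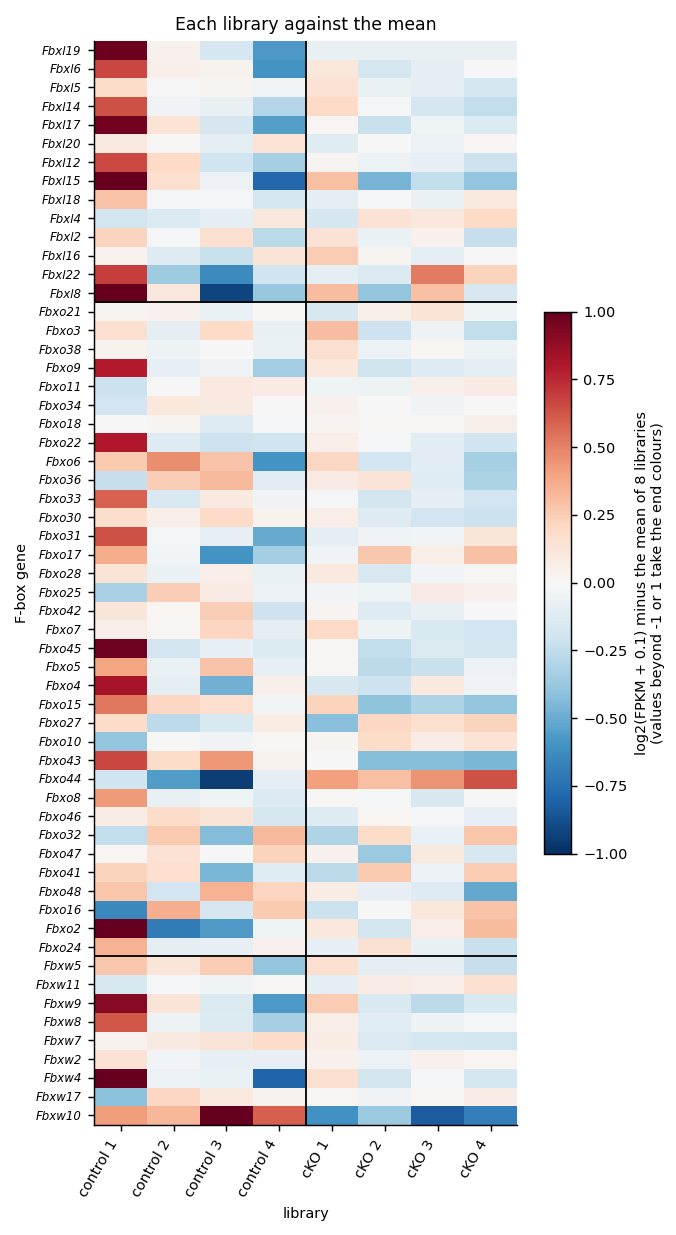
Deviation of each library from the mean of 8 libraries, in log2(FPKM + 0.1), for 58 of the 59 F-box genes tested, ordered by family and level, with end colours at -1 and 1. Control replicate 1 is the highest library in many rows (31 of all 59 genes), and the rows of Fbxo44 and Fbxw10 separate the groups.

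Marker lists of the cell types of the testis were measured in the same libraries. The list of pachytene spermatocyte markers summed to 1327 to 2097 FPKM in the controls and 1139 to 1713 FPKM in Sync-Spdya cKO testes. All 8 of its tested genes had a negative log2 fold change, with a median of -0.29, and 3 of the 8 (Ldhc, Piwil1 and Nme5) had an unadjusted p below 0.05, without passing the adjusted threshold. Over all genes tested 48.0% were negative and 10.9% had such a p. Of its 2 genes not tested, Ccna1 had lower means (1.65 and 0.964 FPKM) and Spag6 higher means (0.579 and 0.799 FPKM) in Sync-Spdya cKO. Early prophase markers summed to 645 to 885 and 617 to 968 FPKM, and spermatogonial markers to 154 to 185 and 160 to 179 FPKM. In these lists 3 genes had an unadjusted p below 0.05, beside 10.9% of all genes, without passing the adjusted threshold. They were Stra8, a gene of meiotic entry, with a log2 fold change of -1.46, Meiob with 0.69 and no overlap between the groups, and Prdm9 with -0.34. Over all genes tested the groups did not overlap in 6.24%. The spermatid list was low, at 5.13 to 13.9 and 7.30 to 8.62 FPKM. Most of it came from Spaca1 (1.92 to 8.99 FPKM over all libraries) and Tssk6 (0.823 to 2.74 FPKM). Prm1, Prm2, Tnp1 and Tnp2 were at no more than 0.580 FPKM. No listed marker was at 0 in all libraries.

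Somatic lists reached higher sums in Sync-Spdya cKO testes. Sertoli cell markers summed to 1000 to 1343 FPKM in the controls and 1336 to 1579 FPKM in Sync-Spdya cKO, with 8 of 9 log2 fold changes positive and 0 at an unadjusted p below 0.05 by limma. Clu alone was at 718 to 940 FPKM in the controls and 991 to 1188 FPKM in Sync-Spdya cKO. The sums of the Sertoli list therefore largely follow Clu. Acta2 likewise made up most of the peritubular sums below, and Hsd3b1 a large part of the Leydig sums. The sums were 16.5 to 37.9 and 28.6 to 46.7 FPKM for Leydig cells, 43.7 to 73.9 and 72.6 to 102 for peritubular cells, 10.2 to 14.8 and 13.8 to 17.6 for macrophages, 5.0 to 12.2 and 11.2 to 14.3 for endothelial cells, and 10.8 to 39.8 and 22 to 46.7 for erythroid cells. Every tested gene of these 5 lists had a positive log2 fold change: 3 of 3, 2 of 2, 4 of 4, 4 of 4 and 3 of 3. In the same order 2, 1, 2, 2 and 1 of them had an unadjusted p below 0.05, and none passed the adjusted threshold of limma. Over all genes tested 10.9% had such a p and 48.0% were negative. Of the genes of these lists not tested, Tagln and Hba-a2 had negative mean log2 differences (-0.22 and -0.33), and the others positive ones. Among tested somatic markers Clu, Acta2 and Csf1r were higher without overlap of the groups, beside 6.24% of all genes without overlap. In bulk RNA fewer cells of a type and less RNA per cell cannot be told apart. The study also made single-cell RNA-seq of pooled testes taken slightly later. There it found a smaller share of spermatocytes and a larger share of spermatogonia in Sync-Spdya cKO. It takes this as a sign of spermatocyte loss. The part of cell makeup in the differences of Fbxw10, Fbxo43 and Fbxo44 was not tested.

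**Figure D5:**
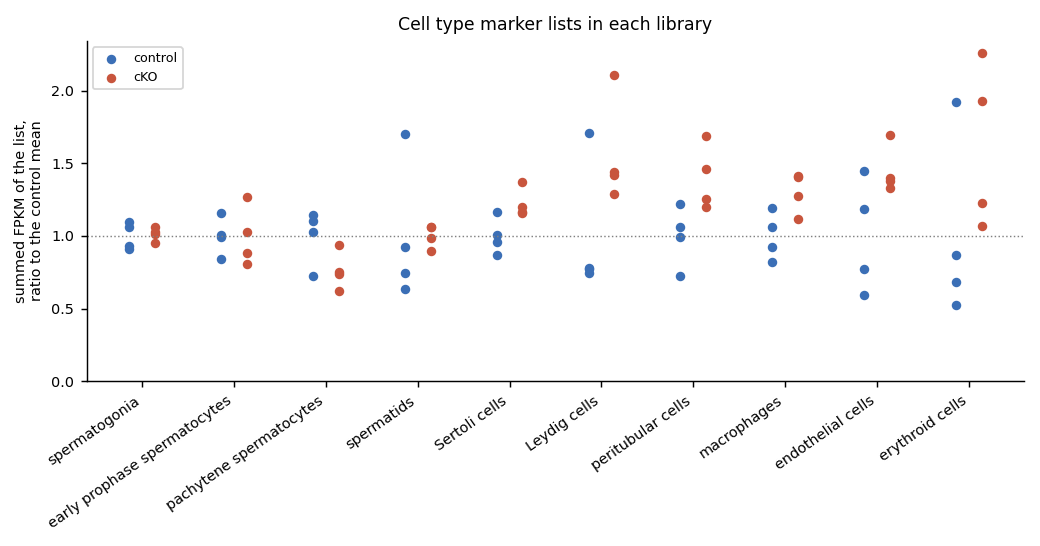
Summed FPKM of each cell type marker list in each library, divided by the mean of the 4 Sync-Spdya fl/fl libraries (dotted line at 1), for Sync-Spdya fl/fl (blue) and Sync-Spdya cKO (red). The Sync-Spdya cKO sums of the pachytene list reach from 1139 to 1713 FPKM, against 1327 to 2097 in the controls, while the highest sum of each somatic list is in a Sync-Spdya cKO library. The Sertoli sums largely follow Clu.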

How the data were processed

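RNA of whole synchronized testes was measured in 8 libraries. Per the study's methods the authors sequenced paired ends and a sequencing company's software made the deposited FPKM values. The aligner, counter and use of strand are not given in the sources used here. Coordinates are on GRCm38, and 78 of the 78 F-box genes were present in GENCODE vM21, 75 with the same start and end. FPKM times gene length gave whole fragments in 100% of values above 0 (tolerance 0.02). limma 3.58.1 in R 4.3.3 (eBayes with trend) compared the 2 groups of 4 libraries on log2(FPKM + 0.1) with no covariate, in the 12141 protein-coding genes whose mean exceeded 1 FPKM in both, with Benjamini-Hochberg adjustment. The exact permutation tests covered the 70 assignments of 8 libraries. Simulated fragments with known changes were used to test the scripts. Alternatives were other pseudocounts, filters, centring, TPM, eBayes without trend, array weights, voom, a replicate block and each library left out. All 8 libraries differed by more than sampling noise and were counted as separate mice. The p-values measure the spread between these mice.

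The members and lists were chosen with earlier results of these data known. The genes named are Fbxw10, Fbxo43 and Fbxo47, those with an unadjusted limma p below 0.05, the 3 most abundant of each family, members of the role lists, Skp1a, Cul1, Rbx1, partner genes with an unadjusted p below 0.05, and the neighbours of Fbxw10. Other genes were named after their values were seen. Promoter sequences are from RefSeq (GRCm38.p6), in which 58 of the 78 genes were matched by symbol. 1 gene is not reported here by name and is left out of the figures. Figures were drawn with matplotlib 3.10.9.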

Additional observations from a re-analysis of the deposited data

Results flagged for a closer look

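Of 34 groups of 4 values examined (named genes and the mitochondrial share, in each genotype), 5 held 1 library far from the other 3, where chance flags about 1 group in 20, and 2 of the 5 were in control replicate 1. In control replicate 1 Fbxo10 was at 5.21 FPKM (other controls 6.70 to 6.91) and the mitochondrial share was 0.464% against 2.97% to 3.39%.

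In Sync-Spdya cKO replicate 1 there were 3 genes closer to the control level than in the other Sync-Spdya cKO libraries. Fbxo15 was at 9.38 FPKM against 6.04 to 6.46, Fbxo43 at 6.05 FPKM against 4.39 to 4.50, and Fbxw7 at 9.45 FPKM against 7.92 to 8.11. Without this library the log2 fold changes were -0.59 for Fbxo15, -0.77 for Fbxo43 and -0.28 for Fbxw7 (limma adjusted p = 0.185, 0.15 and 0.284). These genes were picked for their values in this library, so the larger changes without it follow from the choice.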

How the results depend on the processing

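The number of F-box genes called was 0 in 18 of 19 alternatives and 2 with array weights, which called Fbxw10 and Fbxo44, beside 0.469% of all genes. With array weights 3 passed at a limma adjusted p below 0.05, beside 3.74% of all genes: Fbxw10 (-1.30, adjusted p = 0.0156), Fbxo44 (1.02, adjusted p = 0.0132) and Fbxo43 (-0.67, adjusted p = 0.0226). The weights were 0.161 for control replicate 1 and 4.45 for Sync-Spdya cKO replicate 3, and the cause was not tested. Over all alternatives the limma adjusted p ran from 0.0156 to 0.466 for Fbxw10, 0.0132 to 0.522 for Fbxo44 and 0.0226 to 0.584 for Fbxo43. Their log2 fold changes were -1.35 to -0.90, 0.74 to 1.02 and -0.77 to -0.54, each at an unadjusted p below 0.05 throughout. Fbxw10 and Fbxo47 gave no value under a filter at a mean of 5 FPKM.

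At an unadjusted p below 0.05 the higher genes numbered 5 with array weights, 2 with no filter, 2 as TPM and 1 to 3 with each library left out (3 without control replicate 1). The lower genes numbered 3 as TPM, 3 without trend and 2 to 7 with each library left out: 3 without control replicates 1 and 3, and 2 without Sync-Spdya cKO replicates 2, 3 and 4. Partner genes at an unadjusted p below 0.05 numbered 0 with median centring, as TPM, without trend and with the replicate block, 2 with array weights, and 0 to 2 with each library left out. The median of the F-box genes stayed between -0.15 and 0.01.

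With 1 library left out the log2 fold changes ran from -0.13 to 0.12 for Skp1a, -0.08 to 0.04 for Cul1 and -0.07 to 0.18 for Rbx1. The sign changed for Skp1a as TPM (0.02), with array weights (0.06) and without control replicate 1 (0.12). It changed for Cul1 with centring (0.01), as TPM (0.07), and without control replicates 2 (0.01) and 3 (0.04) or Sync-Spdya cKO replicates 2 (0.02) and 4 (0.02), and for Rbx1 without control replicate 4 (-0.07) or Sync-Spdya cKO replicate 1 (-0.05).

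Same-numbered libraries correlated at 0.0757 to 0.406 in their deviations from the group means, over 0.1 in 3 of 4 pairs, and 5 of 8 libraries correlated best with their own number. The last count is a hint of pairing from the data, but 1 pair was below 0.1 and no label says what a number marks, so the fit was left without a block. With the replicate block there were 0 calls, 1 higher and 4 lower gene at an unadjusted p below 0.05, and log2 fold changes of -1.25 (Fbxw10), -0.66 (Fbxo43) and 0.90 (Fbxo44), each with a limma adjusted p of 0.121. Fbxo15 had -0.44 with the block (limma adjusted p = 0.14).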

Other observations

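Values are given for 2 F-box genes below the level tested. With no filter Fbxo39 had a log2 fold change of 0.91 (limma adjusted p = 0.474), from 0 to 0.0646 FPKM in the controls and 0.0347 to 0.423 FPKM in Sync-Spdya cKO testes. With a filter at a mean of 0.1 FPKM over all libraries Fbxw27 had one of -0.60 (limma adjusted p = 0.487). Both were chosen after their values were seen. The antisense RNA Fbxl12os, which carries an F-box symbol but no protein, was at 0.283 to 0.635 FPKM.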
